A study of Mus musculus with 6 samples.

Results

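Serotonin, noradrenaline and acetylcholine reach the frontal cortex through diffuse projections from brainstem and basal forebrain nuclei, and their receptors set how cortical neurons respond to arousal, attention and reward. The genes described here are the receptor genes of these 3 transmitters, chosen by gene symbol alone: every symbol for a serotonin receptor (Htr), an alpha or beta adrenergic receptor (Adra, Adrb), a muscarinic receptor (Chrm) or a nicotinic receptor subunit (Chrn) that all 6 count tables list. The rule, which reads symbols and no measured value, found 44 genes of 53640 shared symbols. Of the 44, 35 passed the filter on low counts and were tested among 20694 genes, and 9 did not.

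RNA was measured by sequencing of ribosome-depleted total RNA from tissue labelled PFC of mice aged 6 months, with 2 libraries in each of 3 groups. Control mice had the C57BL/6 x C3H background and received vehicle, and the tau group was PS19 mice, which carry human tau with the P301S change under the prion protein gene promoter, also given vehicle. The treated tau group was PS19 mice that received WDR5-0103, a ligand of WDR5, which is a subunit shared by histone H3K4 methyltransferase complexes. The labels call the libraries of a group biological duplicates and give no dose, duration or sex. A level is given in CPM (counts relative to the library total, scaled between libraries by TMM), or in CPM per kilobase of exon where genes are compared with each other. Calls are genes whose adjusted p in the edgeR quasi-likelihood test was under 0.05.

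Most of these receptors are 7-helix proteins that act through G proteins. Htr2 receptors, Adra1 receptors, Chrm1, Chrm3 and Chrm5 couple to Gq and phospholipase C, Htr1, Htr5, Adra2, Chrm2 and Chrm4 to inhibitory G proteins, and Htr4, Htr6, Htr7 and the beta adrenergic receptors to Gs and cyclic AMP. The exceptions are the Htr3 and Chrn subunits, which assemble into cation channels of 5 subunits that open on binding serotonin or acetylcholine.

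Several libraries stood apart before any receptor was considered. Prnp, whose promoter drives the transgene, stood at 876 CPM in control 2 and at 1472 to 1876 CPM in the 4 transgenic libraries; the library labelled control 1, with 1654 CPM, lay at the transgenic level, against its label. The 7 olfactory bulb markers summed to 136 CPM in the library labelled control 1 and to between 5.97 and 9.93 CPM in the other 5. The 12 striatal projection neuron markers summed to 406 CPM in tau 2 and to between 184 and 245 CPM elsewhere, and the 12 oligodendrocyte markers to 5949 CPM in tau 2, 1585 CPM in control 2 and between 2642 and 3179 CPM in the other 4. The defining markers of cortical tissue were present: the 12 excitatory cortical neuron markers summed to between 1678 and 1954 CPM, the 12 interneuron markers to between 996 and 1263 CPM, and no member of either list was at 0. Astrocyte markers summed to between 4870 and 5452 CPM, microglia markers to between 327 and 395 CPM, and endothelial and mural cell markers to between 287 and 371 CPM. By Xist and 4 Y-linked genes, both tau libraries and control 2 read as female, and both treated tau libraries and the library labelled control 1 as male, so that between treated tau and tau the effects of treatment and of sex cannot be told apart. In these bulk samples, fewer cells of a type and less RNA per cell cannot be told apart.

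**Figure D1:**
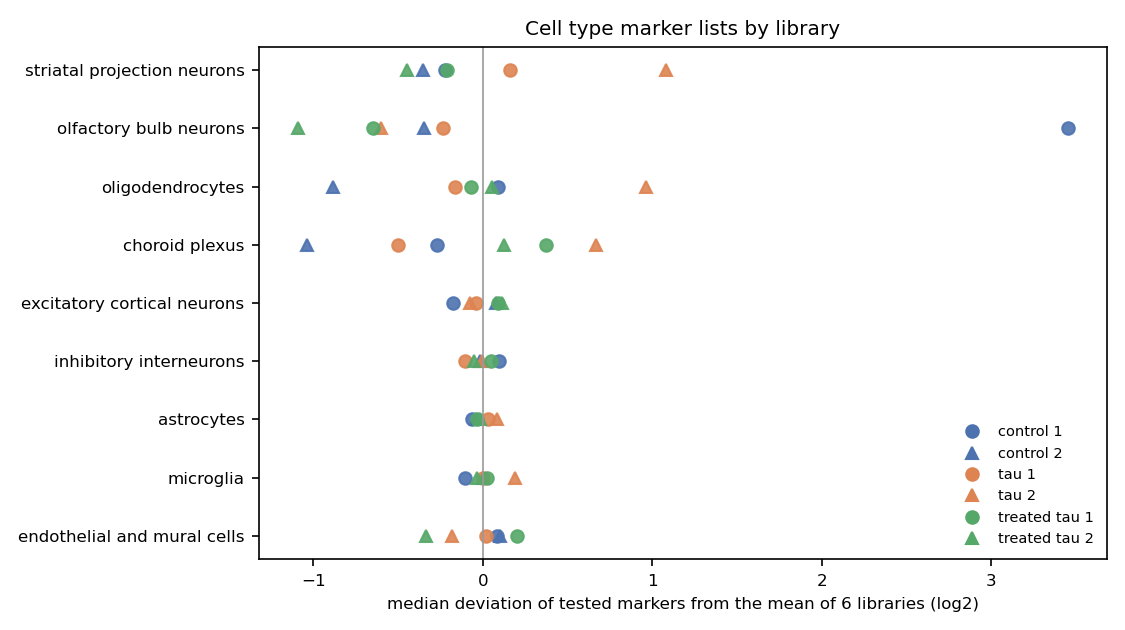
Median deviation of the tested markers of 9 cell type lists from the mean of the 6 libraries (log2, horizontal axis), with 1 point per library, coloured by group (circle: library 1, triangle: library 2). The library labelled control 1 stands at 3.45 for olfactory bulb markers, and tau 2 at 1.08 for striatal and 0.96 for oligodendrocyte markers.

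The 44 genes spanned levels from no counts to over 20 CPM per kilobase. Over the 6 libraries, the highest median level per length was that of Chrm1, the main muscarinic receptor of cortical pyramidal cells, at 21.0 CPM per kilobase (18.3 to 23.2). Htr2a, the Gq-coupled serotonin receptor through which classical hallucinogens act, followed at 18.3 (15.5 to 20.4), then Chrm3 at 14.3 (12.2 to 16.5) and Chrm4, an inhibitory muscarinic receptor, at 13.5 (11.7 to 16.6). Adra1d was the highest adrenergic receptor gene per length at 11.9 CPM per kilobase (8.03 to 13.7). Chrnb2 and Chrna4, whose products form the main high-affinity nicotinic receptor of the brain, had 8.47 (7.83 to 8.76) and 7.18 (6.52 to 8.48) CPM per kilobase. The ranges of neighbours in this order overlapped down to Chrna7, the subunit of the alpha-bungarotoxin-binding receptor, at rank 15 (4.33 to 5.45 CPM per kilobase). Below it lay Htr3a (3.09 to 3.81), the channel subunit typical of a class of interneurons, and the ranges of Chrna7 and Htr3a did not overlap. The next such step lay between Htr2c (2.03 to 2.56) and Htr6 (0.441 to 1.61), and 19 members were below 1 CPM per kilobase in every library. As families, the 5 muscarinic genes held from 31.9% to 36.6% of the summed level per length of all members, the 12 G protein coupled serotonin receptor genes from 24.2% to 28.3%, the 3 alpha 1 adrenergic genes from 11.5% to 15.3% and the 11 neuronal nicotinic subunit genes from 13.5% to 15.6%.

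**Figure D2:**
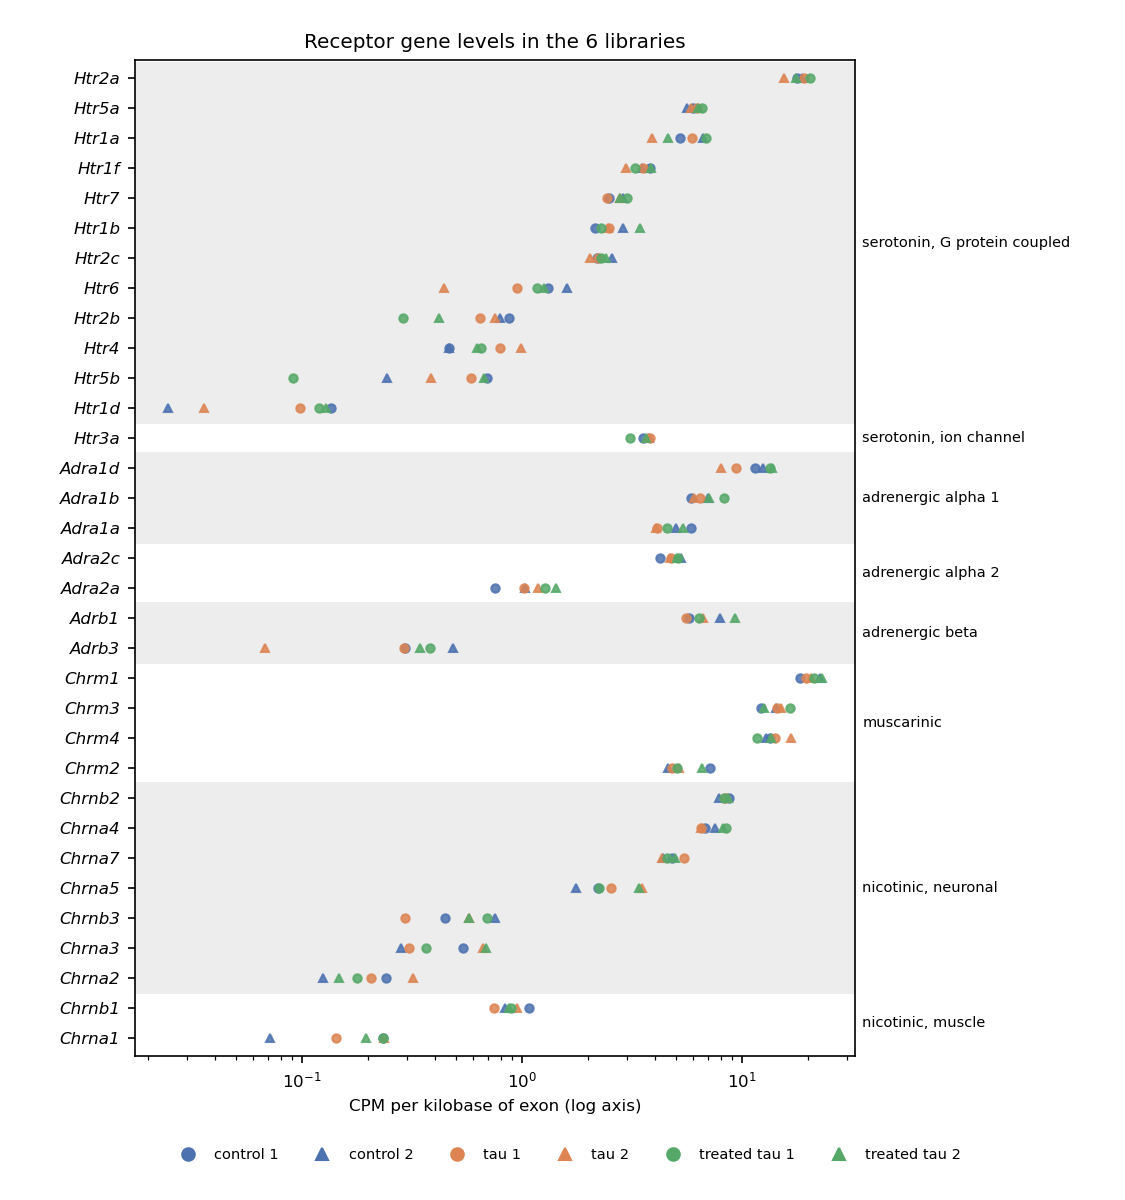
Level of 33 of the 34 tested receptor genes that had counts in every library, in CPM per kilobase of exon (log axis), grouped by family and ordered by median, with 1 point per library (colour: group, circle: library 1, triangle: library 2). Chrm1 and Htr2a lie highest, and the points of most genes above 2 CPM per kilobase lie close together, while genes below 1 CPM per kilobase spread widely.

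Of the 21 members with a median of at least 2 CPM per kilobase, 15 had a ratio under 1.5 between the highest and the lowest library. Chrnb2 had 73.4 and 65.6 CPM in control, 70.0 and 71.9 in tau, against 69.4 and 72.3 in treated tau, the smallest ratio of these, at 1.12. Its exons share positions with Adar on the opposite strand, at 134 to 158 CPM, and reads of the 2 genes may not be separated. Htr5a, an inhibitory serotonin receptor, stayed between 30.1 and 35.2 CPM. Htr2a had 100.1 and 105 CPM in control, 107 and 86.7 in tau, against 115 and 98.5 in treated tau. Chrm1 had 119 and 146 CPM in control, 127 and 133 in tau, against 138 and 150.2 in treated tau. The groups overlapped for Chrnb2 and Htr2a in all 3 comparisons, and for Chrm1 in the 2 that include control. Htr2c, the only member on the X chromosome, was between 18.9 and 23.9 CPM. The other 6 were Chrm2 (28.0 to 43.5 CPM), Htr1b (10.1 to 16.3), Adrb1 (18.9 to 31.3), Adra1d (15.2 to 26.1), Htr1a (17.5 to 30.7) and Chrna5 (5.49 to 11.0), with ratios from 1.55 to 2.01.

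The comparison of treated tau with tau differs in the WDR5 ligand, but also in sex as read from Xist and the Y-linked genes. It therefore does not isolate the effect of the ligand. In this comparison Adra1d was higher in treated tau. Adra1d encodes the alpha 1D adrenergic receptor, a Gq-coupled receptor for noradrenaline (chromosome 2, 131545850 to 131562283, mm10, minus strand). Its level was 17.8 and 15.2 CPM in tau, against 25.5 and 26.1 in treated tau, with 23.6 in control 2 and 21.7 for the library labelled control 1. Both treated tau libraries were above both control libraries, which were above both tau libraries. The mean was 16.5 ± 1.83 CPM in tau and 25.8 ± 0.392 CPM in treated tau (SD, n = 2). The rise was 1.55-fold, or 0.63 ± 0.12 (SE) on the log2 scale, with an adjusted p of 0.0196 in the edgeR quasi-likelihood test. It was the 1 member called among 35 tested (2.86%), against 3.76% of all 20694 genes in the same comparison, a share near that over all genes. All members are single-copy coding genes. In the fit of the 12960 such genes alone, 5 were called in this comparison, and 0 of the 35 members. By direction, 1 member was called higher, against 3.09% of all genes, and 0 lower, against 0.677%. DESeq2 and limma-voom also called Adra1d alone among the members, against 3.93% and 3.38% of all genes.

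The Adra1d call did not hold in every setting. In a fit of the 12960 single-copy coding genes alone its log2 fold change was 0.63 and its adjusted p 0.335, and with each of the 4 libraries compared left out in turn the adjusted p was 0.0601 without tau 1, 0.141 without tau 2, 0.115 without treated tau 1 and 0.131 without treated tau 2. With sex as a term the log2 fold change was 0.76 (adjusted p = 0.184 in edgeR), an estimate in which sex rests on the 2 control libraries. Those 2 libraries also differ in olfactory bulb markers and in Prnp. Adra1d shares exon positions with Gm14285 on the opposite strand, which had between 13 and 38 counts in a library against 266 to 874 for Adra1d. The treated tau tables also differ from the others in their symbol list and in their share of even low counts (54.0% and 55.3%, against 64.3% to 66.7%), and the part of this in the result was not tested.

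The other alpha 1 receptor genes were also higher in both treated tau libraries than in both tau libraries, and neither passed the test. Adra1a, which encodes the alpha 1A receptor, had 50.9 and 43.9 CPM in control, 35.9 and 35.4 in tau, against 39.8 and 47.2 in treated tau. Its log2 fold change for treated tau against tau was 0.28 ± 0.12 (adjusted p = 0.378 in edgeR), with 0.16 without treated tau 2 and 0.07 with the sex term. Adra1b, which encodes the alpha 1B receptor, had 19.8 and 23.8 CPM in control, 21.8 and 20.4 in tau, against 28.0 and 23.9 in treated tau, with a log2 fold change of 0.30 ± 0.14 (adjusted p = 0.422 in edgeR), with 0.18 without treated tau 1 and 0.57 with the sex term. Summed per length, the 3 genes had 19.9 and 18.1 CPM per kilobase in tau, 23.1 and 24.5 in control, and 26.3 and 26.2 in treated tau. Tau was therefore the lowest group and treated tau the highest in this sum, with no overlap between groups. The sum includes Adra1d, the called gene, so it is not separate from that result. Adra1a and Adra1b did not each show this order. The treated tau values of Adra1a overlapped control, and the tau values of Adra1b lay within the control range.

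**Figure D3:**
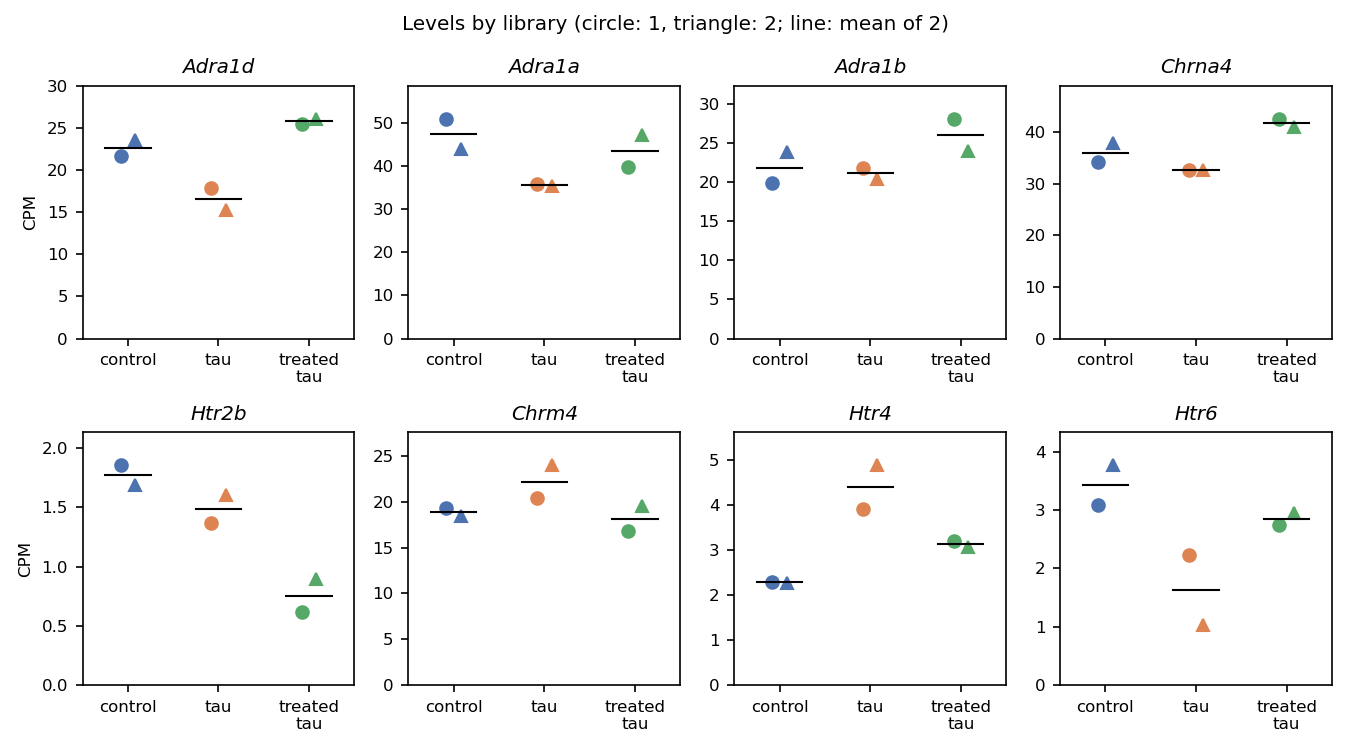
CPM of 8 receptor genes in each library by group (vertical axis from 0; circle: library 1, triangle: library 2; line: mean of the 2 libraries). Adra1d is lowest in both tau libraries and highest in both treated tau libraries, Htr2b is lowest in both treated tau libraries, and Htr4 is highest and Htr6 lowest in tau 2.

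Chrna4 had the second smallest p of the members in treated tau against tau. It had 34.1 and 37.9 CPM in control, 32.8 and 32.7 in tau, against 42.6 and 41.0 in treated tau, so that the treated tau libraries were above all others and the tau libraries below all others. The log2 fold change was 0.35 ± 0.10, with an adjusted p of 0.12 in edgeR. Its usual partner Chrnb2 had a log2 fold change of -0.00 ± 0.09 in the same comparison, with the limit from Adar given above.

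Htr2b, a Gq-coupled serotonin receptor better known from peripheral tissue, was low throughout. It had 1.85 and 1.69 CPM in control, 1.37 and 1.60 in tau, against 0.614 and 0.895 in treated tau, from 21 to 47 counts in a library. Its log2 fold change was -0.99 ± 0.39 against tau (adjusted p = 0.332 in edgeR) and -1.26 ± 0.36 against control (adjusted p = 0.103 in edgeR). Its exons share positions with Psmd1, a proteasome subunit gene on the opposite strand at 161 to 195 CPM, and the strand setting of the counting is not given in the sources used here, so reads of the 2 genes may not be separated.

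Chrm4 was lower in both treated tau libraries than in both tau libraries, at 16.8 and 19.5 CPM against 20.4 and 24.0, with 19.3 and 18.5 in control. The log2 fold change was -0.29 ± 0.13 (adjusted p = 0.448 in edgeR), and -0.17 without tau 2 or without treated tau 1. Chrm4 is strongly expressed by striatal projection neurons, and in treated tau against tau all 11 tested striatal markers had negative log2 fold changes (median -0.87) and 3 were called lower (Drd2, Gpr6 and Rgs9). The summed level of the list was 245 and 406 CPM in tau, 198 and 211 in treated tau, and 196 and 184 in control, with Isl1 at 0 in the library labelled control 1. The part of the striatal signal in the Chrm4 values was not tested.

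Across the 35 tested members, 25 had a positive log2 fold change in treated tau against tau (71.4%), against 48.7% of all genes tested, and the median was 0.15 against -0.01. In 12 members both treated tau libraries lay above both tau libraries (34.3%, against 21.2% of all genes tested), and in 5 both lay below (14.3% against 20.1%). The 12 were Adra1a, Adra1b, Adra1d, Adra2a, Adra2c, Adrb3, Chrm1, Chrna4, Htr1d, Htr2c, Htr5a and Htr6, and the 5 were Chrm4, Chrna2, Htr2b, Htr3a and Htr4. All 8 tested adrenergic genes had positive values, from 0.10 for Adra2c to 0.87 for Adrb3, while the 7 neuronal nicotinic subunit genes split into 3 positive and 4 negative. Members with an average log2 CPM of at least 1 gave 21 positive of 28 (75%), against 49.5% of 11137 single-copy coding genes at that level. The count of positive values was 25 of 35 without tau 2 and also without both tau 2 and the library labelled control 1, between 22 and 27 with any other library left out, and 18 with sex as a term. The sex term rests on the 2 control libraries, which also differ in olfactory bulb markers and in Prnp. Marker lists moved in the same comparison. Of 12 excitatory cortical neuron markers 11 were positive (median 0.13), with summed levels of 1814 and 1708 CPM in tau and 1943 and 1954 CPM in treated tau. Of 12 oligodendrocyte markers 0 were positive (median -0.50), and no marker of either list was at 0. The oligodendrocyte markers summed to 2642 CPM in tau 1 and 5949 CPM in tau 2, against 2783 and 3097 CPM in treated tau. Both treated tau sums thus lay above that of tau 1. The part of both marker lists in the receptor values was not tested. The members are not independent of each other, and these counts are descriptions.

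**Figure D4:**
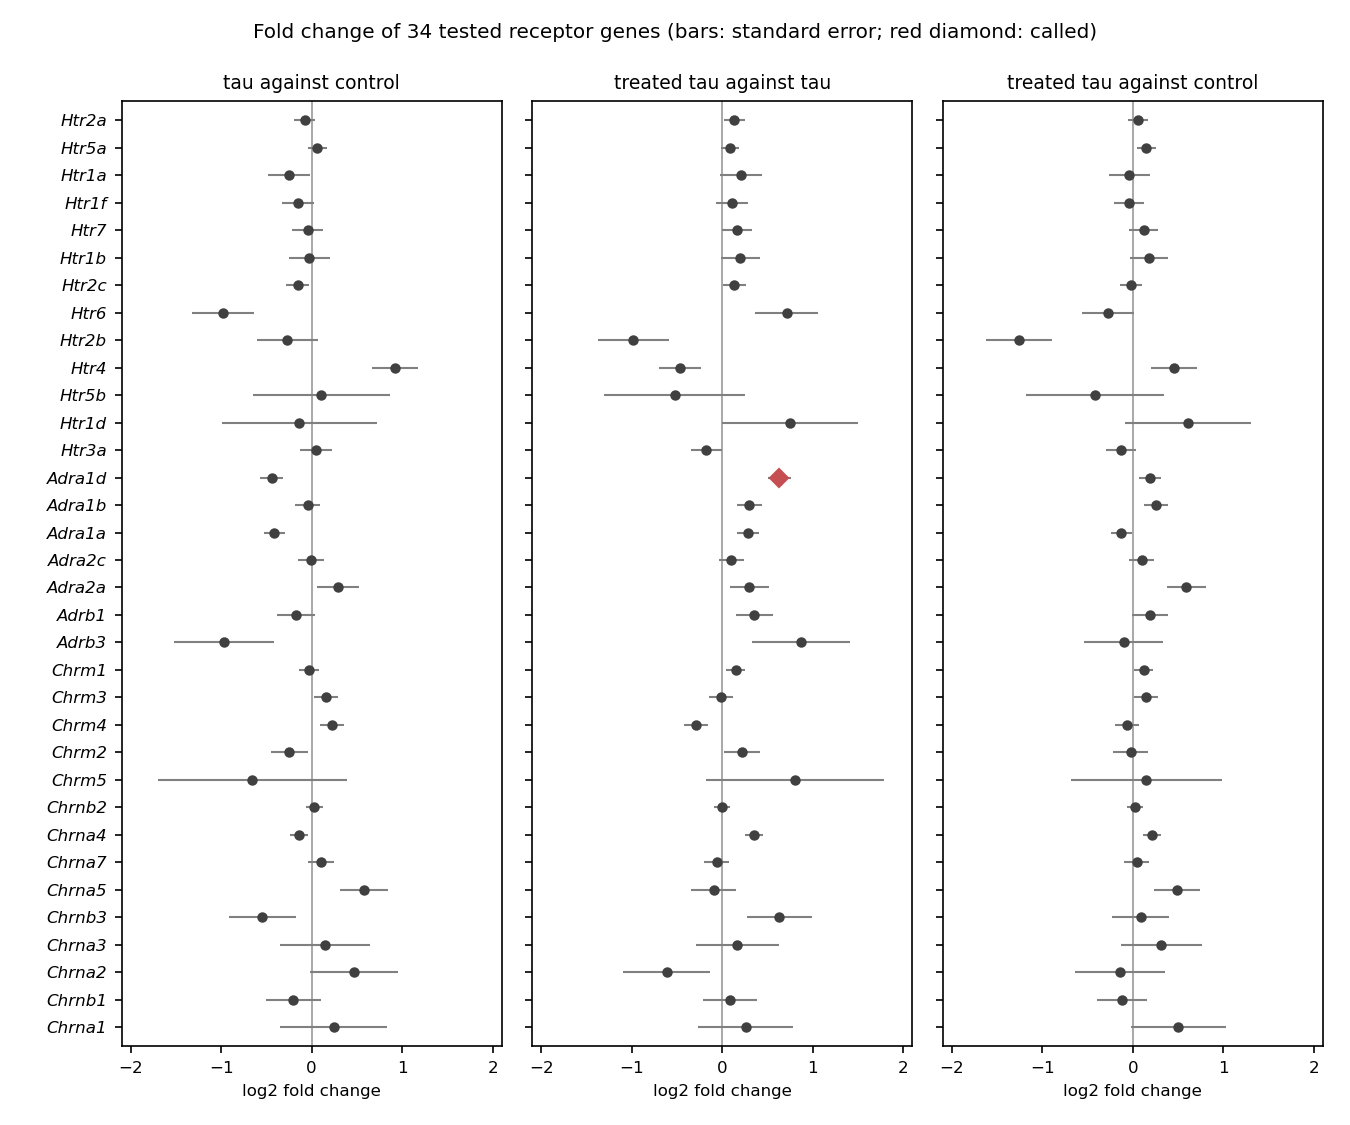
Log2 fold change (horizontal axis) of 34 of the 35 tested receptor genes in the 3 comparisons, with bars for the standard error; the red diamond marks the called gene, Adra1d in treated tau against tau. The comparisons share libraries, so the panels are not independent of each other.

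The comparison of tau with control differs by label in the transgene, and no receptor gene was called in it. The edgeR quasi-likelihood test called 0 of 35 members and 0 of all genes (0%), with 4 members and 2059 genes at an unadjusted p under 0.05 (11.4% and 9.95%). DESeq2 gave an adjusted p to 8 members and called 0 of them, against 55 of 7053 genes (0.78%), and limma-voom called 0 of 35 members and 0 of all genes (0%). The members with the smallest p were Htr4, Adra1d, Adra1a and Htr6, each with no overlap between the groups, followed by Chrna5 and Adrb3. The library labelled control 1 is one of the 2 control libraries. Its Prnp lay at the transgenic level, it carried the olfactory bulb markers, and it read as male while both tau libraries read as female. The comparison therefore does not isolate the effect of the transgene.

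Htr4, a Gs-coupled serotonin receptor, was higher in tau. Its level was 2.29 and 2.27 CPM in control, 3.91 and 4.87 in tau, against 3.19 and 3.06 in treated tau, so that tau was highest, control lowest and treated tau between them. The difference was 0.92 ± 0.25 on the log2 scale (adjusted p = 0.441 in edgeR). Htr6, another Gs-coupled serotonin receptor, had 3.08 and 3.76 CPM in control, 2.23 and 1.03 in tau, against 2.75 and 2.95 in treated tau, with a log2 fold change of -0.98 ± 0.34 (adjusted p = 0.45). Its 18 counts in tau 2 were the lowest of the 6 libraries, and without tau 2 its log2 fold change was -0.61. Both receptors are known from striatal neurons as well as cortex. All 11 tested striatal markers had positive log2 fold changes in tau against control (median 0.82), as had all 12 oligodendrocyte markers (median 0.85), and the part of these signals in the Htr4 and Htr6 values was not tested. Without tau 2 the log2 fold change of Htr4 was 0.78 (adjusted p = 0.685).

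Adra1d and Adra1a were lower in both tau libraries than in both control libraries, with the values given above. The log2 fold change was -0.44 ± 0.13 for Adra1d and -0.41 ± 0.12 for Adra1a, each with an adjusted p of 0.441 in edgeR. Between control 2 and the tau libraries, all read as female, it was -0.50 for Adra1d and -0.30 for Adra1a. With offsets for GC content and length the value of Adra1d was -0.17. These comparisons and that of treated tau with tau share the tau libraries, so the low tau values enter both.

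Chrna5, an accessory nicotinic subunit, was unevenly spread within groups, at 6.95 and 5.49 CPM in control, 7.90 and 11.0 in tau, against 6.96 and 10.7 in treated tau (log2 fold change for tau against control 0.58 ± 0.26, adjusted p = 0.506 in edgeR, and 0.35 without tau 2). Chrna3, which lies beside Chrna5 in one gene cluster, had 2.84 and 1.49 CPM in control, 1.60 and 3.50 in tau, against 1.93 and 3.62 in treated tau. Both genes were highest in tau 2 and treated tau 2. Adrb3, the beta 3 receptor of adipose tissue, had from 4 to 44 counts in a library (log2 fold change -0.97 ± 0.55, adjusted p = 0.563 in edgeR). Its 4 counts were in tau 2, and the value was -0.43 without tau 2, -2.49 without tau 1 and -0.55 without control 2. The fit without control 2 has the library labelled control 1 as its only control. Over the 35 members, 14 log2 fold changes were positive (40%, against 49.4% of all genes tested) with a median of -0.04, and 4 members lay above and 6 below control without overlap (11.4% and 17.1%, against 20.3% and 21.3% of all genes tested). Members with an average log2 CPM of at least 1 gave 11 positive of 28 (39.3%), against 56.1% of 11137 single-copy coding genes at that level.

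In treated tau against control, 0 of 35 members were called by edgeR, against 4.22% of all genes tested (3.32% higher and 0.899% lower), with 2 members (5.71%) at an unadjusted p under 0.05, against 16.3% of all genes. These were Htr2b, given above, and Adra2a. DESeq2 and limma-voom also called 0 members, against 889 and 791 of all genes (4.3% and 3.82%). In the edgeR fit of the 12960 single-copy coding genes alone, 5 were called in this comparison, and 0 of the 35 members. Adra2a, the inhibitory adrenergic receptor through which guanfacine acts in prefrontal cortex, had 3.63 and 4.98 CPM in control, 4.93 and 5.73 in tau, against 6.14 and 6.90 in treated tau. Treated tau was highest without overlap, with a log2 fold change of 0.59 ± 0.21 (adjusted p = 0.2 in edgeR). It was 0.84 without control 2, where all libraries compared read as male, and 0.39 without the library labelled control 1. Values without control 2 rest on the library labelled control 1 as the only control. That library had Prnp at the transgenic level and carried the olfactory bulb markers. Chrna4 (0.21 ± 0.10, adjusted p = 0.324), Adra1b (0.26 ± 0.13, adjusted p = 0.385) and Chrna5 (0.48 ± 0.25, adjusted p = 0.398) also had positive values that did not pass in edgeR. Adra1b had 0.14 without the library labelled control 1 or without treated tau 1 and 0.40 without control 2, and Chrna5 had 0.17 without treated tau 2 and 0.79 without treated tau 1. In this comparison 22 of 35 members were positive (62.9%, against 48.8% of all genes tested), 8 lay above control without overlap (22.9% against 23%) and 2 below (5.71% against 23.3%).

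The 9 members outside the test were at or near the limit of detection. Chrnd, the delta subunit of the muscle receptor, had 0 counts in all 6 libraries, which allows up to 3 counts, or from 0.0877 to 0.172 CPM depending on the library. Chrng, Chrne, Chrna6, Chrna9, Chrna10, Htr3b and Adra2b had at most 10 counts in any library. Chrnb4, a subunit of ganglionic and habenular receptors, had 18 counts in the library labelled control 1, 1 in treated tau 2 and 0 in the other 4. Chrna10 had 10 counts in the library labelled control 1, 2 in each treated tau library and 0 in the other 3. Both genes were highest in the library that carried the olfactory bulb markers, whose defining genes Cdhr1, Tbx21 and Doc2g stood there at 56.9, 3.16 and 17.4 CPM against at most 4.26, 0.157 and 1.14 CPM in the others, and the part of that tissue in these counts was not tested. Of the muscle-type subunits, Chrna1 and Chrnb1 were the 2 tested, at 0.314 to 1.03 and 1.88 to 2.72 CPM, while the 9 skeletal muscle markers summed to between 23.6 and 28.8 CPM with Tnnt3 at 0 in 4 libraries.

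Genes that act with these receptors were read from 4 lists. Of 14 tested genes for transmitter synthesis, transport and breakdown, 0 were called in any comparison, and 7, 5 and 9 were positive in tau against control, treated tau against tau and treated tau against control. Th, the rate-limiting enzyme of catecholamine synthesis, had 27.7 CPM in the library labelled control 1 and between 0.82 and 2.27 CPM elsewhere (log2 fold change -2.77 ± 1.07 for tau and -3.57 ± 1.09 for treated tau against control, adjusted p = 0.455 and 0.124 in edgeR), and Th is also an olfactory bulb marker. Bche, a cholinesterase, had a log2 fold change of -0.63 between treated tau and tau (adjusted p = 0.436), and Tph2, the neuronal enzyme of serotonin synthesis, 1.09 for treated tau against control (adjusted p = 0.302). The serotonin transporter gene Slc6a4 had at most 0.224 CPM and the acetylcholine-synthesising gene Chat at most 0.522 CPM. The 8 cholinergic neuron markers summed to between 2.08 and 4.81 CPM, with Gbx2 at 0 in every library. Of 26 tested G protein and effector genes, 0 were called, and 12, 20 and 20 were positive in the 3 comparisons in the same order. In treated tau against tau the median was 0.11, and Kcnq3, a potassium channel gene, had 0.29 ± 0.10 (adjusted p = 0.267 in edgeR). Kcnq3 contributes to the current that muscarinic receptors suppress. The adenylyl cyclase genes Adcy8 (-0.34 for tau against control, adjusted p = 0.441), Adcy9 and Adcy1 (0.23 and 0.19 for treated tau against control, adjusted p = 0.219 and 0.287) did not pass either. Of 14 tested genes of receptor desensitisation, 0 were called, with 9, 7 and 10 positive. Rgs20, an inhibitor of G protein signalling, came closest, at 19.4 and 20.2 CPM in tau, 13.1 and 14.3 in treated tau, and 14.6 and 16.7 in control (log2 fold change -0.53 ± 0.13 against tau, adjusted p = 0.0592 in edgeR, and 0.34 for tau against control, adjusted p = 0.456). Next were Grk2 (0.12 against tau, adjusted p = 0.617), Rgs2 (0.39 for tau against control, adjusted p = 0.441), and Grk5 and Rgs4 (-0.37 and 0.28 for treated tau against control, adjusted p = 0.219 and 0.226). Of 12 tested partners of nicotinic and serotonin receptors, 0 were called, with 8, 5 and 9 positive. Lynx1, a membrane-anchored inhibitor of nicotinic receptors, had 434 and 427 CPM in control, 442 and 530.3 in tau, against 523 and 552 in treated tau (0.32 ± 0.09 for treated tau against control, adjusted p = 0.0942 in edgeR, and 0.15 against tau, adjusted p = 0.622). Ly6e had 0.16 for tau and 0.25 for treated tau against control (adjusted p = 0.533 and 0.164), and Agrn, the organiser of the neuromuscular synapse, -0.27 between tau and control and 0.12 between treated tau and tau (adjusted p = 0.452 and 0.752). Of 10 choroid plexus markers, 5 were tested, and the list summed to between 2.98 and 12.9 CPM.

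The sequences upstream of the start sites are shown for the members with the smallest p in treated tau against tau, since the mark named in the series title, H3K4 trimethylation, is known from promoters rich in CpG. RefSeq start sites (GRCm38.p6, the mm10 assembly) were listed for 32 of the 44 genes, 36 starts in all; Adra1d and Adra1a are not among them. Each sequence is the 250 bases before the start, on the strand of the gene and read 5′ to 3′, with capitals for GGGCGG, the GC box bound by Sp family factors, or its reverse complement CCGCCC.
Chrna4, chr2:181039178-181039427, minus strand: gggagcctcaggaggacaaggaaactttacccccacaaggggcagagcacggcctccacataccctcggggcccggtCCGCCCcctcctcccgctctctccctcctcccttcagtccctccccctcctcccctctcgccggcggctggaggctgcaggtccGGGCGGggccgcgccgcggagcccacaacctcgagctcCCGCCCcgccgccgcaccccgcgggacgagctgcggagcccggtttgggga
Adra1b (inner start), chr11:43836490-43836739, minus strand: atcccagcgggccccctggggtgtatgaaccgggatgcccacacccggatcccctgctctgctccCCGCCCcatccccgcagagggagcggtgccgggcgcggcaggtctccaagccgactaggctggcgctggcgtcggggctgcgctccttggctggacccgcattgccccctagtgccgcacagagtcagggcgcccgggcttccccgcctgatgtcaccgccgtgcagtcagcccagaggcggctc
Adra1b (outer start), chr11:43901238-43901487, minus strand: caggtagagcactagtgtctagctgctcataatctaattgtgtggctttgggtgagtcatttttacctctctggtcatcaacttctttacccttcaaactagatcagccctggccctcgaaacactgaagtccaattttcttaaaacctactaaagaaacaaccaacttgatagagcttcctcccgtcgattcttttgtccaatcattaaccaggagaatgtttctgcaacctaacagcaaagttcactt
Chrm4, chr2:91921939-91922188, plus strand: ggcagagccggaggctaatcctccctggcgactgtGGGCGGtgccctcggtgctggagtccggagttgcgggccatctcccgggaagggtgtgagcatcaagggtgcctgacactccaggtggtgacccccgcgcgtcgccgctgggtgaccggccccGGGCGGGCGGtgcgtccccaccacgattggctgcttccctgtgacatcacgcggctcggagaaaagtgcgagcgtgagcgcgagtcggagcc
Htr2b, chr1:86111981-86112230, minus strand: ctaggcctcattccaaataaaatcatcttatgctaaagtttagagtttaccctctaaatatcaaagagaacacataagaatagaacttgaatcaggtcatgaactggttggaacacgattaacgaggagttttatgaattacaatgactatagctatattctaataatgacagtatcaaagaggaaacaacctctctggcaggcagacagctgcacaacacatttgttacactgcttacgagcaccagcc

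The first 30 bases after the start lie in a GENCODE transcript of the gene for Chrna4 but not for the other 4 starts shown, and for 27 of all 36 member starts. The Chrm4 window lies upstream of the GENCODE gene (chromosome 2, 91927249 to 91928688) whose exon length sets its level per kilobase. These starts differed in CpG content. The Chrna4 start held 24 CpG and 3 GC boxes, the Chrm4 start 26 CpG and 3 GC boxes, of which 2 overlap, and the inner Adra1b start 22 CpG and 1 GC box. The outer Adra1b start and the Htr2b start held 3 CpG each and no GC box. Over all 36 member starts the median was 8.5 CpG, and 16 (44.4%) held GGGCGG on either strand, against a median of 6 CpG and 32.7% of all 32851 starts listed. The cyclic AMP response element TGACGTCA, which is its own reverse complement, was in 0 of the 36 and in 1.55% of all starts. Chrna4 and Adra1b were higher and Chrm4 and Htr2b lower in treated tau than in tau, and none of these genes passed the test. A relation between the CpG content of the starts and these values was not tested.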

How the data were processed

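Per the labels' protocols, stranded libraries were made after removal of ribosomal RNA, and Cutadapt trimmed the reads, which were then aligned to mouse RefSeq mRNAs with TopHat2; the submitters' processing notes add SAMtools, featureCounts, edgeR and mm10. Tool versions, the strand setting and the handling of multiply aligned reads: not given in the sources used here. Deposited by the authors were raw read counts per gene symbol, in 1 table per library, on 54429 symbols for control and tau and 54134 for treated tau; 53640 are shared, and the others hold from 0.333% to 0.352% of a library's counts. Total counts ranged from 17690811 to 34774643. Of counts from 1 to 20, between 64.3% and 66.7% were even in the control and tau tables and between 54.0% and 55.3% in the treated tau tables. The cause of this difference was not tested, and the floor of 3 counts covers counting error only. The library numbers are those of the sample titles; the file headers number 4 libraries differently.

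Shared symbols that passed filterByExpr at a minimum count of 10 were scaled (TMM) and fitted over all 6 libraries, with no covariate and 3 residual degrees of freedom, by the quasi-likelihood test of edgeR 4.0.16 (R 4.3.3, two-sided, legacy option off), checked on simulated data. Adjusted p is the Benjamini-Hochberg value over 20694 genes. Positions, exon lengths and 50-mer sharing came from GENCODE M21; no member shared over 3.02% of its 50-mers, 8 share exon positions with a gene on the opposite strand, and single-copy coding genes share at most 5%. Members named per comparison are those called, or the 6 of smallest p; of each partner list, up to 3 called genes or the 2 of smallest p, with other genes given as levels. Some genes that meet these rules are not reported here. The members and lists were chosen with earlier results of these data known. Alternatives were DESeq2 1.42.0, limma 3.58.1 (voom), other scaling and filters, the legacy fit, a fit of the 4 libraries compared, a replicate block, a sex term, single-copy coding genes, and leaving out libraries; the GC and length offsets (mgcv 1.9.3), the removal of 2 libraries together and the counts over coding genes were chosen after seeing the data.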

Additional observations from a re-analysis of the deposited data

How the results depend on the processing

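Receptor genes called in tau against control numbered 0 in all 18 alternatives, and in treated tau against control 0 in 17. The exception was the fit without control 2, where Chrnb4, a member outside the main test, passed the filter on low counts and was called. The only control library left in that fit is the library labelled control 1. Chrnb4 had 18 counts there and at most 1 elsewhere, so the call rests on that library. In treated tau against tau the 1 call, Adra1d, was made in 12 of 18 alternatives. It was lost (0 receptor genes called) in the fit of single-copy coding genes, with the sex term, and without each of the 4 libraries compared; leaving out 1 library gave from 0 to 1 calls. The cause was not tested. The log2 fold change of Adra1d stayed between 0.53 and 0.76. With the replicate block the counts of receptor genes called were 0, 1 and 0 for tau against control, treated tau against tau and treated tau against control, as without it; the titles' numbers are not stated to pair samples, and the within-group differences of same-numbered libraries correlated between groups at 0.01, -0.01 and 0.07 over genes. Of the 319 values of named genes under the alternatives, 313 kept direction and side of the threshold, 6 (Adra1d) kept direction only, and 0 reversed. Most of these values belong to genes not called in the main fit, for which keeping the side means staying uncalled. The named genes were picked by their p in that fit and the alternatives reuse its libraries, so this count is not a measure of stability. Over all genes the calls ranged from 0 to 130 for tau against control, 5 to 1047 for treated tau against tau and 5 to 1110 for treated tau against control; the single-copy coding fit gave 5 in each of the latter 2 and the fit without both the library labelled control 1 and tau 2 the highest in each. DESeq2 gave no adjusted p to 5 of the 6 named genes of tau against control. With 1 library left in a group, that library is assumed to vary like the other groups. Counts under about 50 in a library limit, among others, Htr2b, Htr6, Adrb3, Htr5b, Htr1d, Chrm5, Chrna1, Chrna2, Chrna3, Chrnb1 and Chrnb3.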
